A study of Caenorhabditis elegans with 2 samples.

Results

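The genes described here encode the CoREST proteins of Caenorhabditis elegans and the enzymes and zinc finger proteins known to work with them. They are the CoREST genes rcor-1 and spr-1, the demethylase genes lsd-1, spr-5 and amx-1, the class I histone deacetylase genes hda-1, hda-2 and hda-3, and the zinc finger genes spr-3 and spr-4. These 10 genes were chosen by family and function out of 19985 protein-coding genes in the annotation, and all 10 were found in it by symbol. The assay was chromatin immunoprecipitation with an antibody to GFP, followed by sequencing, in whole young adult worms of strain RW12222 at 65 h. The strain carries rcor-1 fused to TY1, EGFP and 3xFLAG, so that the antibody recovers DNA bound by, or near, the tagged RCOR-1 protein. The worms had been bleached and synchronised as starved first-stage larvae, and chromatin was sheared by sonication. There was 1 group with 2 biological replicates; the control that the labels mention was not analysed here, so no value below is set against an untagged or input sample. Since whole worms were used, a low signal in all cells and a high signal in a few cells cannot be told apart.

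CoREST proteins are scaffolds that join histone deacetylases to demethylases of the LSD1 family, so that a single complex can remove acetyl groups and methyl marks associated with active genes. In mammals the complex is recruited by zinc finger proteins such as REST. In C. elegans, spr-1, spr-3, spr-4 and spr-5 were found as suppressors of the egg-laying defect of mutants in the presenilin gene sel-12, and spr-5 mutants are known for a loss of fertility that grows over generations.

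Some of the upstream intergenic regions to which the results below refer are printed here. Intergenic means outside protein-coding genes, so a noncoding gene may lie there. The printed regions are a pair next to spr-1, the only thresholded region at hda-1, and, for comparison, the strongest regions of amx-1 and spr-3, which passed no threshold. The conservative peaks of rcor-1 are not among them. The spr-1 regions lie at chrV:8129797-8130076 and chrV:8129385-8129664, the hda-1 region at chrV:14524312-14524591, the amx-1 region at chrIII:3821977-3822256 and the spr-3 region at chrX:4512827-4513106. Each is the forward strand of the WBcel235 assembly from RefSeq. Capitals mark matches, on either strand, to the motifs searched: the E-box CACGTG, the repeat GAGAGA, the GC box GGGCGG and the TATA box TATAAA.
spr-1, upstream region: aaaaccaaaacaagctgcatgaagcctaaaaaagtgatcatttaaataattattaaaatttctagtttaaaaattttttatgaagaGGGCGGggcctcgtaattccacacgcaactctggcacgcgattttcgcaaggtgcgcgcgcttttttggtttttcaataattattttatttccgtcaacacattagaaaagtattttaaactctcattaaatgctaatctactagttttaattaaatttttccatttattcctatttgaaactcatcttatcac
spr-1, region nearer the gene: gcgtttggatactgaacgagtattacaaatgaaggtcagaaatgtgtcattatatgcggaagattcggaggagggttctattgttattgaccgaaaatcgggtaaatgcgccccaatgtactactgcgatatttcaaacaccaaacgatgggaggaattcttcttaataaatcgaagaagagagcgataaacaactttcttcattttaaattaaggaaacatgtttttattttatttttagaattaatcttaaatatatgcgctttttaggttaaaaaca
hda-1, upstream region: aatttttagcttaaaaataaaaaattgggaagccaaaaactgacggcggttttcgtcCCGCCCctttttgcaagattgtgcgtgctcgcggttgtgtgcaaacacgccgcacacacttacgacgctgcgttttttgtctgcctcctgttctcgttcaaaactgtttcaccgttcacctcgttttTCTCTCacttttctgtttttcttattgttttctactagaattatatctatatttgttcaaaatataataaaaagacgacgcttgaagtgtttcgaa
amx-1, upstream region: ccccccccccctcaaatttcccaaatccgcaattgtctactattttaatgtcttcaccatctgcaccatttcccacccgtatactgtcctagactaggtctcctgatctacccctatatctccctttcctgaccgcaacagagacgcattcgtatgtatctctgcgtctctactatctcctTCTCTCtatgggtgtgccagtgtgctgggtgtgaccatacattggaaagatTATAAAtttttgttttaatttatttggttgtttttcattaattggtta
spr-3, upstream region: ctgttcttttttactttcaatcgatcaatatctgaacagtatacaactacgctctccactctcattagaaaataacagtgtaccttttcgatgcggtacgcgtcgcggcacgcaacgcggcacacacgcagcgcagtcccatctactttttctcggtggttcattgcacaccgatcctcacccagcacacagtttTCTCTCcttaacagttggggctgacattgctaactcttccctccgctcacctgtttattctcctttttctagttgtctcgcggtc

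The upstream spr-1 region held the GC box and had a GC content of 31.1%, whereas the region nearer the gene held none of the 4 motifs and had 33.2%. The hda-1 region held both the GC box and the GAGA repeat at 39.3% GC. The GAGA repeat was also present in the amx-1 and spr-3 regions, at 42.5% and 47.9% GC, and the amx-1 region held a TATA box as well. In windows of 281 bp around the summit, GAGAGA was present in 34.1% of 2324 conservative peaks on nuclear chromosomes and in 19% of 42671 candidate regions that were not in that list. The GC box was present in 12% and 6.73%, the TATA box in 22.7% and 20.9%, and the E-box in 7.14% and 6.35% of the same sets, whose median GC content was 40.9% and 39.5%. These matches are letters in a window and say nothing of a bound factor. Both conservative peaks of rcor-1, which are not printed, held none of the 4 motifs in windows of the same length.

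The deposited files list regions at several levels of stringency. The conservative list held 2344 peaks on which the replicates matched at the authors' irreproducible discovery rate (IDR, the estimated share of regions whose ranks do not match between replicates), and the pooled list held 2403 peaks. The peak lists of replicates 1 and 2 held 1550 and 1482 peaks. Behind them stand ranked lists of all candidate regions: 45103 ranked between the replicates, 45933 from the pooled reads, and 37733 and 32427 from replicates 1 and 2. The signal printed below is the authors' own measure of the strength of a region, on a scale that is not given in the sources used here, and its percentile is the share of regions in the same list with a lower signal. The median signal was 90.4 in the conservative list, 25.7 in the list ranked between replicates, and 13.7 and 18.8 in the lists of replicates 1 and 2, so a signal should be read within its own list. The ranked lists of single replicates and of pooled reads carry their own IDR. Within a single replicate it cannot measure a match between the replicates, so the IDR too should be read within its own list. The lists carry no read numbers, so the sequencing depth behind a region is unknown and no counting interval can be given.

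Of the 10 genes, rcor-1 and hda-1 had a conservative peak whose summit lay between 2000 bp upstream of the 5' end and the gene end. The same window held a conservative peak in 12.5% of the 19985 protein-coding genes. All 3 peaks at these 2 genes had a signal below the median of the conservative list. In the pooled list rcor-1, spr-1 and hda-1 had a peak, against 12.8% of all genes. None of the 10 had a peak in the list of replicate 1, against 9.07% of all genes, while rcor-1 and spr-1 had a peak in that of replicate 2, against 8.61%. Each of the 10 genes held at least 1 candidate region in every ranked list: the background there was 69.8% of genes for the list ranked between replicates, 70.3% for the pooled list, 72.4% for replicate 1 and 68.4% for replicate 2. With so few genes these counts are a description, and no test was made over the members.

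Long genes have longer windows and are hit more often. With all genes divided by window length into 3 classes of about the same size (short, middle and long), 6 of the 10 windows were long and 4 were in the middle class. A conservative peak was present in 10.3% of genes with short windows, 10.1% of those with middle and 16.9% of those with long windows, and a region ranked between replicates in 59.6%, 67.4% and 82.4%. The window of rcor-1, at 11298 bp, was longer than that of 94.2% of genes, and that of spr-5, at 14161 bp, longer than that of 96.7%. The hda-1 window was in the middle class at 4023 bp.

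**Figure D1:**
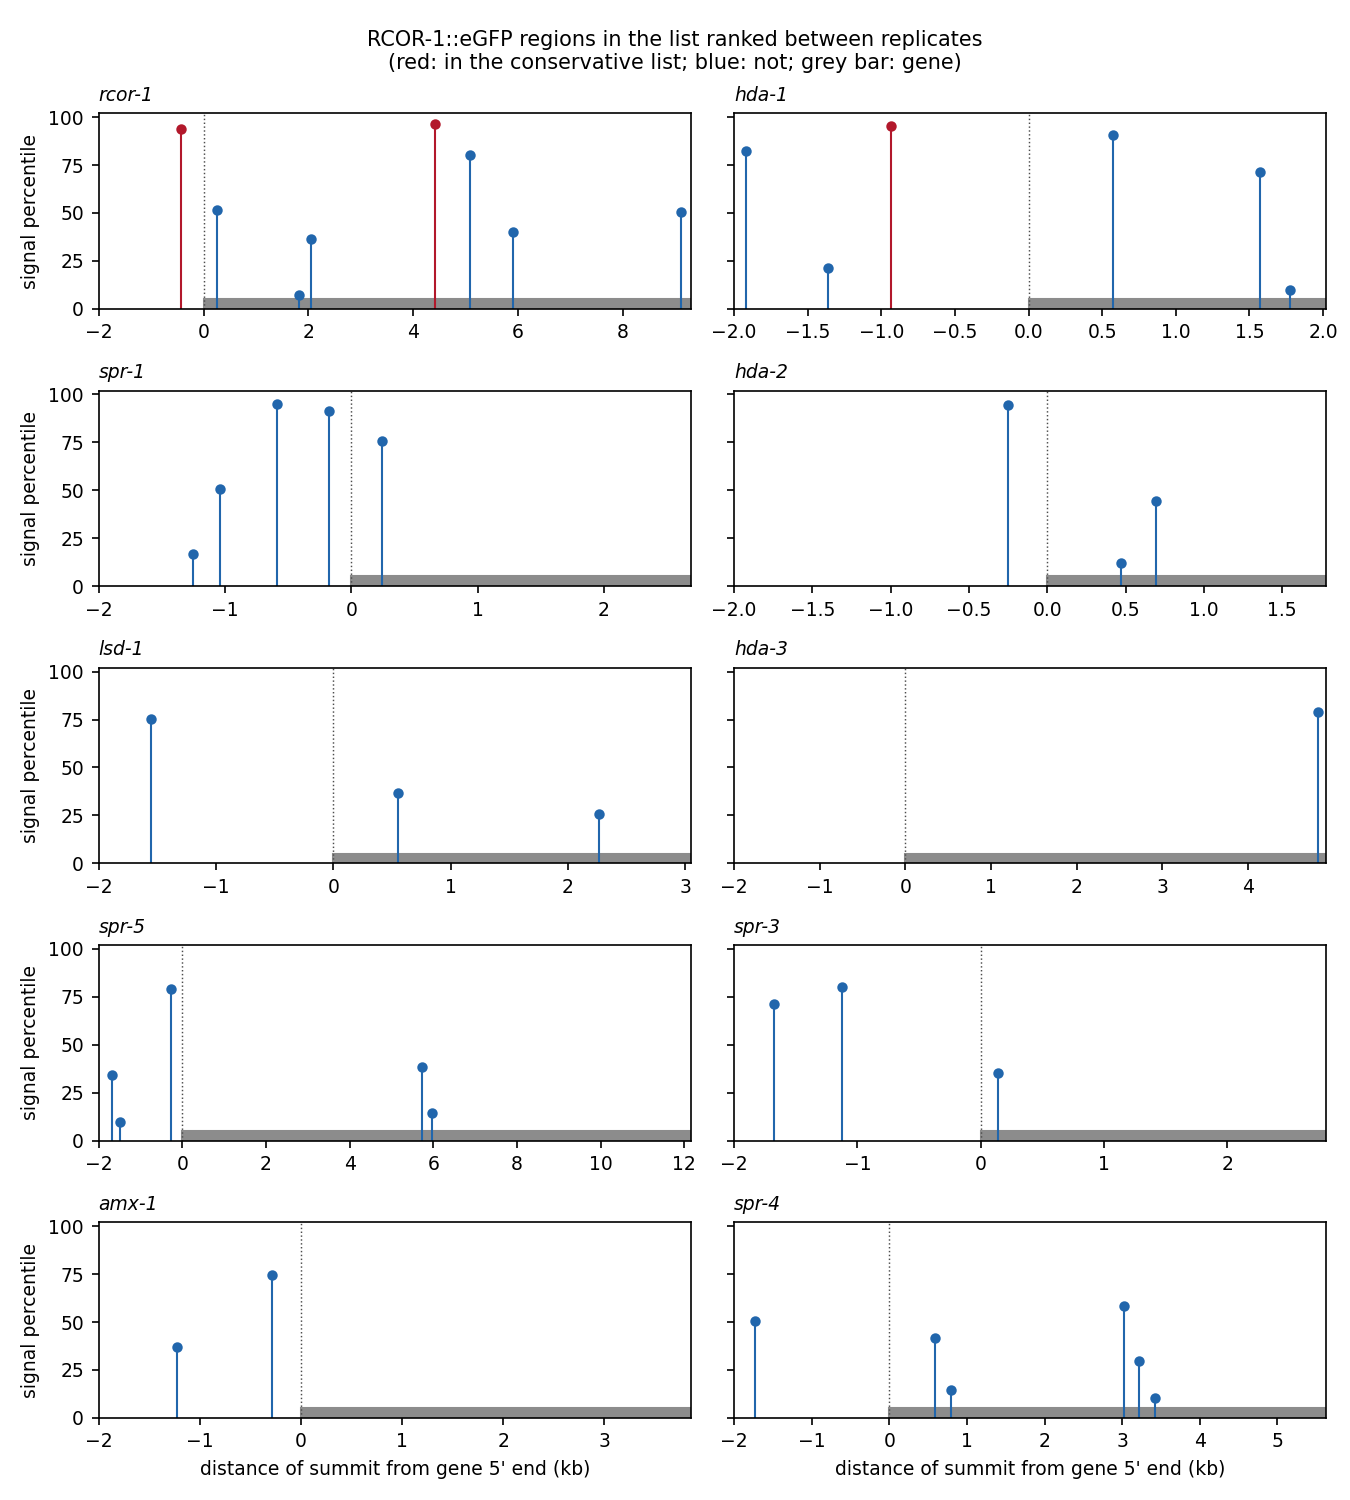
Candidate regions ranked between replicates at each of the 10 genes, by distance of the summit from the 5' end (kb, x axis), with the height giving the signal percentile in that list (y axis, %), red for regions in the conservative list, blue for the others and a grey bar for the gene. The conservative peaks are those of rcor-1 at 4410 and -425 bp and of hda-1 at -937 bp.

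The plot of regions by distance from the 5' end shows all 42 regions of the list ranked between replicates that fell in the 10 windows. Of these, 18 lay upstream of the 5' end and 24 in the gene body, and 9 were within 500 bp of the 5' end. The nearest protein-coding 5' end was that of another gene for 11 of them, and with noncoding genes included the nearest 5' end was that of another gene for 14. These counts of place were not computed for the windows of other genes, so they have no background. The upstream part of each window was 2000 bp, whereas the genes ran from 1782 bp at hda-2 to 12161 bp at spr-5. The 10 genes had a median of 0.666 regions per kb, compared with 0.399 over all protein-coding genes (quartiles 0 and 0.793). Genes with no region are included in that comparison, and overlapping regions were counted separately.

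The tagged gene itself, rcor-1, on the reverse strand at chrI:17484-26781, had the most peaks of the 10. Its strongest region, at chrI:22231-22510, lay in an intron 4410 bp past the 5' end and 1244 bp upstream of an internal transcript start. The region had a signal of 76.7 (percentile 96.5, IDR 0.00184) in the list ranked between replicates. In replicate 1 its signal was 27.7 (percentile 92.9, IDR 0.134) and in replicate 2 it was 50.2 (percentile 96.1, IDR 0.00238). Both replicates thus placed it among their stronger candidates, but it entered the peak list of replicate 2 and not that of replicate 1. It ranked 1521 of the 2344 conservative peaks by signal.

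The second rcor-1 peak, at chrI:27066-27345, was intergenic, 425 bp upstream of the 5' end. Its signal was 57 (percentile 93.9, IDR 0.00745) between replicates, 25.6 (percentile 91.4, IDR 0.049) in replicate 1 and 34.5 (percentile 91.4, IDR 0.0616) in replicate 2. It stood at the same percentile in both replicates, was in the peak list of neither, and ranked 2138 in the conservative list. Another region, in an intron at 5083 bp, had a signal of 36.9 (percentile 80.4) but differed between replicates, with percentiles of 76.9 and 20.4. A region in the rcor-1 3' UTR at 9115 bp was weaker, at 25.9 (percentile 50.5), and was listed in replicate 2 alone, at 24.4 (percentile 76.4). Whether the tag affected any region at rcor-1 was not tested.

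The other CoREST gene, spr-1, on the reverse strand at chrV:8126663-8129352, had a pair of neighbouring regions upstream, whose sequences are given above. The farther one, 585 bp from the 5' end, had a signal of 61.7 (percentile 94.8) between replicates. Its signal was 20.4 (percentile 83.6, IDR 0.369) in replicate 1 and 49.7 (percentile 96, IDR 0.00553) in replicate 2, so it was high in both lists and higher in the second. Its IDR was 0.0244 in the list ranked between replicates and 0.007 in the pooled ranked list. It therefore missed the conservative list and stood at rank 2046 of 2403 in the pooled list and 1204 of 1482 in that of replicate 2.

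The nearer spr-1 region, 173 bp upstream, had the higher percentile in replicate 1. Its signal was 48.3 (percentile 91.1, IDR 0.0136) between replicates, 26.8 (percentile 92.3) in replicate 1 and 29.3 (percentile 86.7) in replicate 2, and it was in no thresholded list. The strongest spr-1 region thus lay 394 bp apart in the 2 replicates. Farther upstream, a weaker region at -1036 bp, with a signal of 25.9 (percentile 50.4), was closer to the 5' end of snap-1, which encodes an alpha-SNAP membrane fusion factor.

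Among the demethylase genes none had a peak in any thresholded list. At spr-5, the orthologue of LSD1 known to remove methyl groups from histone H3, the strongest region lay 270 bp upstream, inside the 3' UTR of the neighbouring translation factor gene eif-3.J. Its signal was 36.1 (percentile 79.1, IDR 0.176) between replicates, 16.7 (percentile 70.1) in replicate 1 and 23.3 (percentile 72.6) in replicate 2. Both replicates placed it at a similar, moderate rank, although neither placed it first at this gene. The other regions in the long spr-5 window reached at most 22.6 (percentile 38.3) in the list ranked between replicates. Replicate 1 had its strongest spr-5 region at 1324 bp, with a signal of 19.3 (percentile 80.5), and replicate 2 at 11589 bp, with 23.9 (percentile 74.6).

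At the other demethylase genes the strongest region was listed in 1 replicate and not in the other. At lsd-1, on the forward strand at chrX:11948844-11951893, the strongest region lay 1557 bp upstream, nearer to nfya-1, which encodes a subunit of the NF-Y transcription factor. It had a signal of 34.2 (percentile 75.3, IDR 0.692), was not listed in replicate 1 and had 12.6 (percentile 9.86) in replicate 2. In replicate 1 the strongest lsd-1 region was instead at -498 bp, with a signal of 19.7 (percentile 81.6). At amx-1, named as a homologue of the mammalian demethylase KDM1B, also called LSD2, the region 286 bp upstream printed above had a signal of 33.8 (percentile 74.3, IDR 0.493) between replicates and 15.2 (percentile 61.6) in replicate 1, and was not listed in replicate 2.

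The amx-1 window also stopped just short of a stronger peak. A conservative peak at chrIII:3820234-3820513, with a signal of 87.3 and rank 1240, had its summit 2029 bp upstream of amx-1, which is 29 bp outside the window. It was in the peak lists of both replicates, with signals of 40.8 and 50.3. The nearest 5' end, 695 bp away, was that of dpy-27, a condensin subunit gene of X-chromosome dosage compensation. This peak is not counted as one of amx-1.

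Of the deacetylase genes, hda-1, an essential gene of embryonic and gonad development, had a conservative peak. The peak, at chrV:14524312-14524591 and printed above, lay outside protein-coding genes, 937 bp upstream of the 5' end. Its signal was 68.2 (percentile 95.6, IDR 0.0079) between replicates, 31.2 (percentile 94.4, IDR 0.0388) in replicate 1 and 30.3 (percentile 87.9, IDR 0.18) in replicate 2. Both replicates ranked it first at this gene, with summits 49 bp apart, yet neither had it in its own peak list, and it ranked 1822 in the conservative list. It was nearer to another start than to that of hda-1: the 5' end of ril-1 was 323 bp away, and it overlapped the noncoding RNA gene C53A5.18. A second region, in a coding exon of hda-1 at 571 bp, had a signal of 47.5 (percentile 90.7, IDR 0.458), with percentiles of 91.2 in replicate 1 and 49.3 in replicate 2.

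At hda-2 the strongest region lay 252 bp upstream, at chrII:8022673-8022952, in the 3' UTR of swsn-7, which encodes a component of the SWI/SNF chromatin remodelling complex. Its signal was 60.3 (percentile 94.5, IDR 0.0593) between replicates, 29.3 (percentile 93.6, IDR 0.0799) in replicate 1 and 24.2 (percentile 75.6, IDR 0.739) in replicate 2. The summits were 11 bp apart, but the region stood higher in the first replicate and was in no thresholded list. A conservative peak at chrII:8020637-8020916, with a signal of 81.5 and rank 1375, had its summit 3 bp past the end of hda-2, in the 3' UTR of zyg-11, and is not counted as one of hda-2.

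The remaining deacetylase gene, hda-3, had a single region in the list ranked between replicates, and it lay at the far end of the gene, in its own 3' UTR at 4823 bp. The nearest 5' end, 212 bp away, was that of mag-1, which encodes a subunit of the exon junction complex. The signal was 36.1 (percentile 79.1, IDR 0.707), with 24.1 (percentile 89.8) in replicate 1 and 12.2 (percentile 7.83) in replicate 2. This difference of 82 percentile points was the largest among the regions of the 10 genes listed in both replicates.

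The zinc finger genes had no thresholded peak either. At spr-3, on the forward strand at chrX:4514093-4516895, the region printed above lay 1126 bp upstream, with a signal of 36.7 (percentile 80.1, IDR 0.218) between replicates, 17.3 (percentile 73.3) in replicate 1 and 20.9 (percentile 62.2) in replicate 2. Replicate 2 had a stronger region in a coding exon at 1430 bp, with a signal of 25 (percentile 78.2). At spr-4 the strongest region of the list ranked between replicates was in a coding exon at 3020 bp, with 28.1 (percentile 58.4, IDR 0.616) and, in replicate 1, 21.5 (percentile 86). It was not listed in replicate 2. The pooled ranked list and replicate 1 instead had their strongest spr-4 region upstream, at -424 bp with 36.8 (percentile 80.6) and at -435 bp with 25.3 (percentile 91.1).

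**Figure D2:**
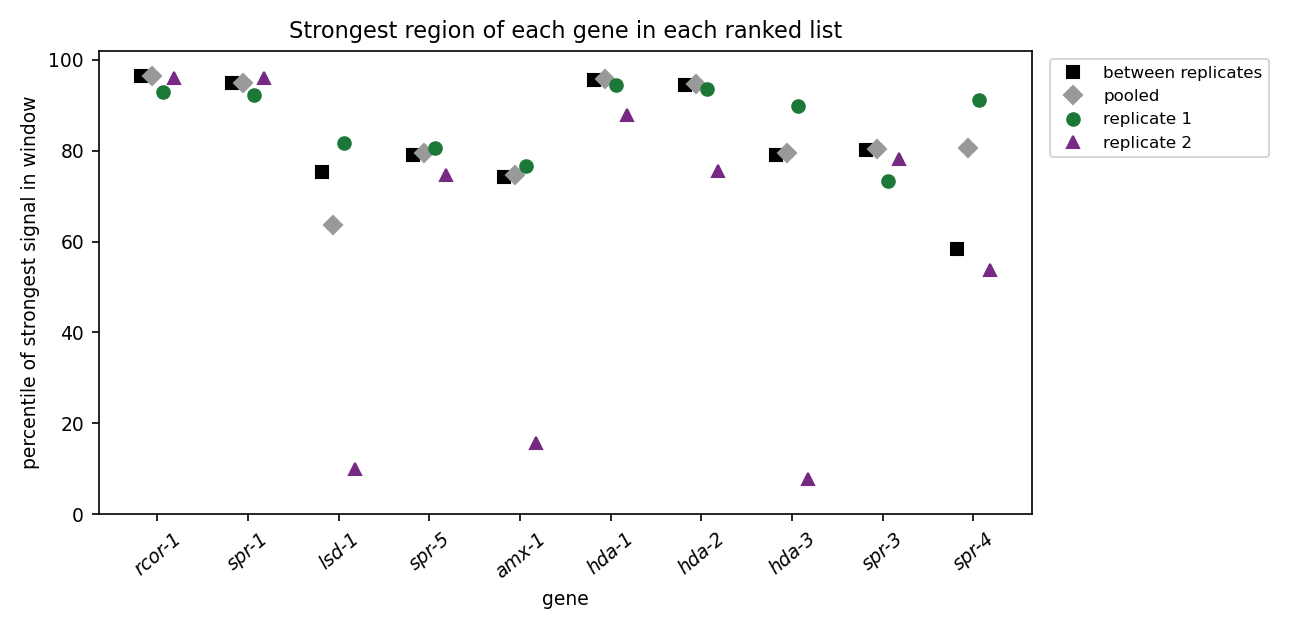
Percentile of the strongest region in the window of each gene (y axis, %) in the list ranked between replicates, the pooled list and the list of each replicate, 1 point per gene and list. The points of rcor-1, spr-1, hda-1 and hda-2 are at 75.6 or higher in every list, and those of spr-5 and spr-3 reach down to 74.6 and 73.3. Those of lsd-1, amx-1 and hda-3 are at 9.86, 15.7 and 7.83 in replicate 2.

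The plot of the strongest region by list sets the genes side by side. In the list ranked between replicates, rcor-1, spr-1, hda-1 and hda-2 held a region at or above the 90th percentile, which 21.1% of all protein-coding genes did. In replicate 1 this was so for 5 of the 10 genes against 18.4% of all, and in replicate 2 for 2 against 16.2%. The median percentile of the strongest region was 79.6 over the 10 genes and 79.1 over the 13950 genes with any region. It was 90.5 against 74 in replicate 1 and 75.1 against 72.2 in replicate 2. The strongest regions of the replicates were within 150 bp of each other at rcor-1, hda-1, hda-2 and hda-3. They were farther apart at the other 6 genes, by 394 bp at spr-1 to 10265 bp at spr-5. At hda-3 each replicate listed only 1 region in the window. The same share was not computed over all protein-coding genes, so these counts have no background.

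**Figure D3:**
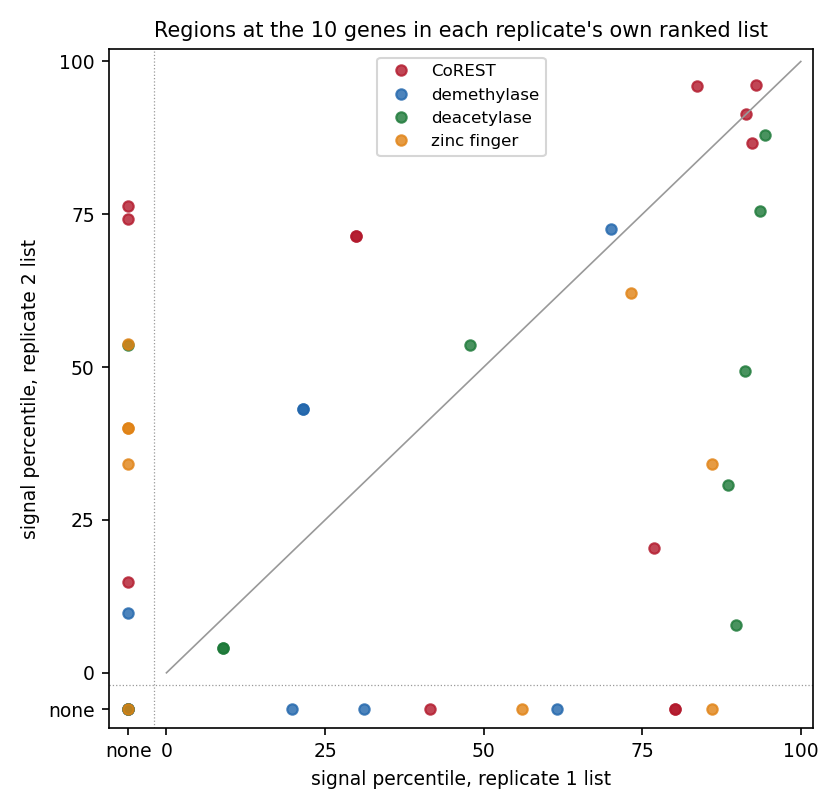
Signal percentile in the ranked list of replicate 1 (x axis, %) against that of replicate 2 (y axis, %) for the regions at the 10 genes, 1 point per region, coloured by protein family, with regions not listed in a replicate in the strips marked none. The 20 regions listed in both replicates spread widely, with a median absolute difference of 15.2 points and a largest of 82.

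In the plot of replicate percentiles, 20 of the 42 regions, 47.6%, were listed in both replicates, compared with 39.4% of all 45103 regions. Another 8 were listed in replicate 1 alone, 9 in replicate 2 alone and 5 in neither. Of the 20, 11 had the higher percentile in replicate 1, 8 in replicate 2, and 1 was equal. Some neighbouring regions overlap and match the same region of a replicate, so these points are not independent.

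**Figure D4:**
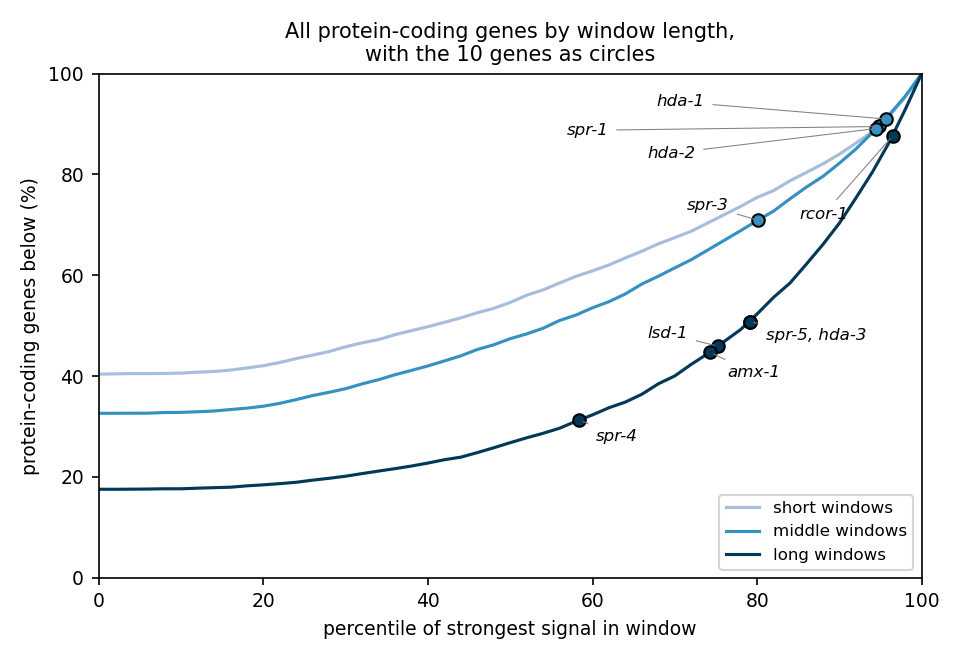
Share of protein-coding genes (y axis, %) whose strongest region lies below a given signal percentile (x axis, %), for genes with short, middle and long windows, with the 10 genes as circles. At the right end hda-1, spr-1, hda-2 and rcor-1 lie above 91, 89.5, 89.1 and 87.7% of genes with windows of like length, and spr-4 lies above 31.3%, all in the list ranked between replicates.

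The plot of all genes by window length shows where each gene stood among genes of like size. Of genes in the same class of window length, those with no region included, 91% had a weaker strongest region than hda-1, 89.5% than spr-1, 89.1% than hda-2 and 87.7% than rcor-1. The share was 70.9% for spr-3. For the others it was lower: 50.8% for both spr-5 and hda-3, 45.9% for lsd-1, 44.7% for amx-1 and 31.3% for spr-4. These shares are for the list ranked between replicates, and at some genes they differed widely in other lists. For hda-2 the share was 89.6% in replicate 1 and 73.3% in replicate 2. For spr-4 the share was 53% in the pooled list, 76.2% in replicate 1 and 36.2% in replicate 2. For hda-3 it was 73.6% in replicate 1 and 18.6% in replicate 2. In replicate 1 it was 59.6% for lsd-1 and 52.5% for amx-1, and in replicate 2 it fell to 19% and 20.5%.

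Genes that act in related complexes or marks were listed by function as 34 further genes, all found in the annotation. Of these, 12 had a conservative peak, 35.3% compared with 12.5% of all genes. A pooled peak was present in 11 of them (12.8% of all genes), a peak in replicate 1 in 7 (9.07%) and a peak in replicate 2 in 6 (8.61%). In the list ranked between replicates 32 of the 34 had a region, compared with 69.8% of all genes, and the median percentile of the strongest region was 92.7, compared with 79.1 over all genes with a region. The list was put together with earlier results of these data known, and its count is a description.

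In the nucleosome remodelling and deacetylase group, and the related MEC complex, 5 of 8 genes had a conservative peak. A single peak at chrI:9619906-9620065 with a signal of 295 stood 227 bp upstream of lin-53, a histone-binding RbAp46/48 homologue, and 1880 bp upstream of its paralogue rba-1, and was counted for both. In the peak list of replicate 2 its summit was nearer to the 5' end of nra-2, at 225 bp, than to that of lin-53, at 242 bp. The peak of lin-40, an MTA homologue, had a signal of 69.7 at -874 bp. The zinc finger gene mep-1 had peaks of 67.4 at -227 bp and 61 at -744 bp.

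Among the 3 genes of the SIN3 group, mrg-1, a chromodomain gene needed in the germ line, had a peak of 143 that was nearest to the start of spcs-2. Of the 9 other deacetylases and sirtuins, hda-11 had a peak of 165 at -60 bp, hda-6 of 71.9 at -11 bp and the sirtuin gene sir-2.1 of 68.8 at -30 bp. All 3 lay close to the 5' end, unlike the hda-1 peak at -937 bp. The hda-11 peak was in all 4 thresholded lists, that of sir-2.1 in the conservative and pooled lists, and that of hda-6 in the conservative list alone. A weaker conservative peak of 24.4 at -210 bp from hda-6 was nearer to the 5' end of F41H10.4. Of the 9 histone methylation genes, the demethylase gene jmjd-2 had a peak of 144 at -1474 bp, the methyltransferase gene set-2 of 141 at -271 bp and set-17 of 55.7 in its 3' UTR. None of the 5 presenilin genes and other suppressors had a conservative peak, although spr-2 had a pooled peak of 66.1 at -151 bp and one of 29 in replicate 1.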

How the data were processed

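Anti-GFP ChIP-seq was analysed from 8 deposited lists of regions (4 thresholded, 4 ranked) for 2 biological replicates of 1 group. Regions are on the ce11 assembly and ranked by IDR, per the file headers and notes; no source used here names the aligner or peak caller. The signal of each region is the authors' own value, with no stated scale, and the IDR was deposited as −log10 and converted back here. The number of reads behind a region is unknown. The values of a replicate were read from its own lists, and 16 columns of replicate values in the series' lists that name no replicate were not used.

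A region was assigned to a gene when its summit lay from 2000 bp upstream of the 5' end to the gene end (Ensembl release 115, WBcel235, with the same coordinates as ce11). The window code was tested on simulated data. Sequences came from the RefSeq WBcel235 assembly. No test was made, since there was 1 group, and the counts stand beside the share of all protein-coding genes. Every member is named; of the linked lists, genes with a conservative peak are named, at most 4 per list by signal. Members and lists were chosen with earlier results of these data known. Alternatives were the other lists, each replicate alone, other windows, region overlap, a higher signal threshold and percentiles without mitochondrial regions. The analysis used Python 3.11.15, pandas 2.3.3, NumPy 2.4.6 and matplotlib 3.10.9.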

Additional observations from a re-analysis of the deposited data

How the results depend on the processing

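The count of 2 of the 10 genes with a conservative peak rested on few, weak peaks. It was 0 without replicate 2 (9.07% of all genes) and 2 without replicate 1 (8.61%), where the genes were rcor-1 and spr-1 and no longer hda-1. It was 0 among peaks with a signal above the list median (7.14% of all genes had one) and 1 (rcor-1) with summits within 500 bp of the 5' end (6.64% of genes). It was 1 without summits at other 5' ends, for which the share of all genes was not computed. When any overlap of the region counted it was 4, which added amx-1 and hda-2 (13.3% of genes). In the pooled list it was 3 (12.8% of genes), and it was 2 with 1000 bp upstream (10.2%) or with the upstream part alone (9.88%). All 10 genes had a region ranked between replicates, but 6 had one within 500 bp of the 5' end (41.4% of genes), and 9 or 10 under the other alternatives (53.1 to 72.4% of genes where computed). The 12 linked genes with a peak (12.5% of all genes had one) became 6 without replicate 1 (8.61%), 7 without replicate 2 (9.07%) and 7 within 500 bp (6.64%). The median percentile of the strongest region, 79.6, ranged from 75.1 to 90.5 when 1 replicate was left out. With 1000 bp upstream it was 79.1, but the value fell from 75.3 to 36.5 at lsd-1 and from 80.1 to 35.4 at spr-3, whose strongest regions lie farther upstream. The 0.666 regions per kb (0.399 over all genes) became 0.738 in the pooled list (0.406 over all genes). In the single replicates the value was 0.518 in replicate 1 (0.351) and 0.47 in replicate 2 (0.294). The cause of the other shifts was not tested. Of 50 values of single genes under alternatives, 40 moved by less than 1 SD of the replicates and 10 by 1 SD or more, 9 of these being the value of a single replicate. This SD rests on 2 values per gene, which are themselves among the alternatives, so the counts do not measure how stable the values are. The fall at lsd-1 and a rise from 58.4 to 80.6 at spr-4 in the pooled list were below 1 SD. A shift from 79.1 to 74.6 at spr-5 without replicate 1 was above it. Each of these shifts compares different regions, since the strongest region changed place. At spr-5 it lay at -270 bp in the list ranked between replicates. The SD at spr-5 was likewise taken over different regions, at 1324 bp in replicate 1 and 11589 bp in replicate 2. No paired analysis was possible because there was 1 group and no test. With no read numbers, depth sets no limit that can be stated here.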
